A study of Mus musculus with 4 samples.

Results

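The proximal B cell receptor (BCR) complex and its kinases were followed through 9 genes, *Cd79a*, *Cd79b*, *Cd81*, *Lyn*, *Blk*, *Syk*, *Btk*, *Blnk* and *Grb2*. The genes were chosen by name from their place in BCR signaling, with earlier results of these data known. Their rows were found by matching the Ensembl identifiers of the count table to GENCODE symbols of GRCm38 (mm10). All 9 were among the 41214 genes of the table and all 9 passed the filter on low counts, which left 14554 genes. RNA-seq had been made from unstimulated splenocytes selected magnetically for B220, with 2 libraries from MIZ-1 WT and 2 from MIZ-1 △POZ mice, all young adults on a C57BL/6 background. In MIZ-1 △POZ mice a floxed stretch of *Zbtb17* that encodes the POZ domain of MIZ-1 is removed in B cells by an MB1-Cre allele. This Cre allele lies in *Cd79a* and is driven by the *Cd79a* promoter, so the level of *Cd79a* cannot be read apart from the Cre insertion. Whether the MIZ-1 WT mice carried the Cre allele is not given in the sources used here. The labels call the libraries of a genotype replicates, and the study's methods call them biological replicates. Neither says whether each library came from a separate mouse, so p-values measure only the spread between these libraries.

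The BCR is a membrane immunoglobulin bound to a heterodimer of CD79A and CD79B, whose cytoplasmic tails carry the tyrosine motifs that are phosphorylated when antigen binds. Kinases of the SRC family such as LYN and BLK phosphorylate these tyrosines, SYK docks on them and becomes active, and SYK and BTK then act on phospholipase C together with the adaptor BLNK. CD81 is a tetraspanin of the co-receptor complex at the B cell surface, and GRB2 is an adaptor that links tyrosine-phosphorylated proteins to further partners.

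The 2 MIZ-1 WT libraries held 44452007 (replicate 1) and 43026814 (replicate 2) counts on genes, and the 2 MIZ-1 △POZ libraries 46387209 (replicate 1) and 43214303 (replicate 2). Levels are given as CPM, the usual expression of a gene's counts relative to the library total, with totals scaled by edgeR's TMM method, and, where genes are compared with each other, as RPKM, the same CPM divided by the kilobases of all annotated exons of the gene. *Zbtb17* (ENSMUSG00000006215, chromosome 4 from 141444654 to 141467930), the targeted gene, had 47.8 and 46.3 CPM in MIZ-1 WT and 37.3 and 38.0 CPM in MIZ-1 △POZ. Both MIZ-1 △POZ libraries lay below both MIZ-1 WT libraries, at a log2 fold change of -0.32 (with a standard error, SE, of 0.06, adjusted p = 0.00857 by the quasi-likelihood test of edgeR with Benjamini-Hochberg adjustment). This call was lost without MIZ-1 WT replicate 1 (-0.30, adjusted p = 0.0696 by the same edgeR test and adjustment) and under the scaling on pan-B cell genes described next (-0.05). *Spen* overlaps *Zbtb17* on the opposite strand, where the strand setting of the counting, which is not given in the sources used here, leaves the assignment of reads uncertain. Counts over whole genes do not show whether the exons of the POZ domain were lost.

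Positive log2 fold changes stand for higher levels in MIZ-1 △POZ than in MIZ-1 WT, and genes with an adjusted p under 0.05 over all tested genes were called. A scaling on 12 pan-B cell genes, with the 9 genes of interest left out of it, was run as an alternative to TMM. Changes under this scaling are relative to the geometric mean of those 12 genes. It moved the median log2 fold change of all genes from -0.01 to 0.27, and it raised the share of higher genes among the called ones from 52.8% (3076 higher and 2746 lower) to 89.8% (6170 higher and 701 lower). Changes under it are therefore relative to this shift. With TMM, the log2 fold changes of the 12 genes themselves ran from -0.53 (*Cd37*) to 0.55 (*Pou2af1*). Levels per B cell were not tested.

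Per length, the 9 genes covered a wide range of levels. *Cd79b* was the most abundant in both genotypes, at 1433 ± 18.0 RPKM (SD, n = 2) in MIZ-1 WT, and *Grb2* the least abundant, at 20.4 ± 0.0983 RPKM (SD, n = 2), a ratio of 70.3. In MIZ-1 WT, *Blk* at 223 ± 5.50 RPKM (SD, n = 2) and *Cd79a* at 222 ± 12.1 RPKM (SD, n = 2) followed *Cd79b* and did not differ beyond their spread. Then came *Syk* at 152, *Lyn* at 138, *Cd81* at 78.2, *Blnk* at 50.8 and *Btk* at 37.4 RPKM. In MIZ-1 △POZ, *Cd79a* stood at 81.7 ± 15.8 RPKM (SD, n = 2), below *Blk*, *Lyn*, *Syk* and *Cd81*. *Lyn* at 132 and *Syk* at 130 RPKM lay side by side there, and *Cd81* reached 107 RPKM. These levels depend on the annotated exon length, which is 9362 bases for *Syk* and 1431 for *Cd79b*.

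**Figure D1:**
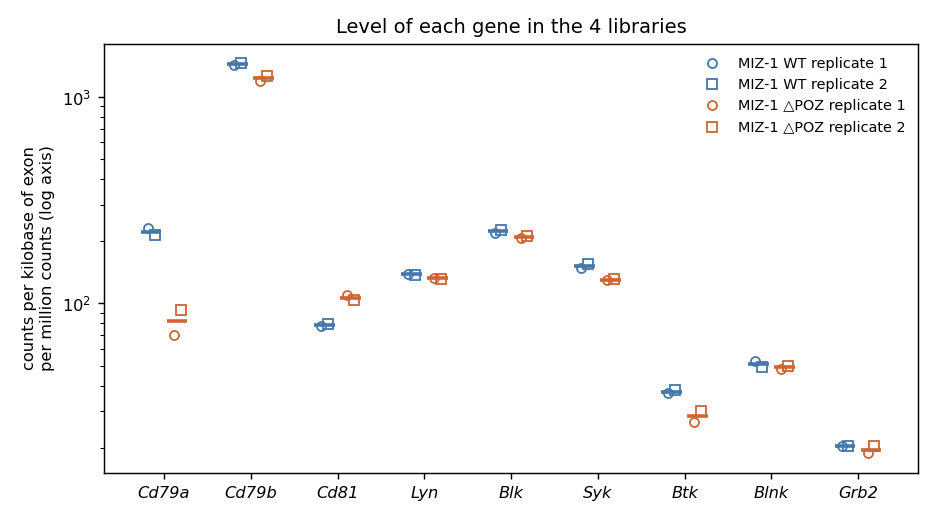
Level of the 9 genes in each library, in RPKM on a log axis, with open symbols for the libraries and a bar for the mean of each genotype. *Cd79a* is the gene whose MIZ-1 △POZ libraries (70.5 and 92.9 RPKM) stand farthest from its MIZ-1 WT libraries (231 and 214 RPKM), while the libraries of *Blnk* overlap.

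Of the 9 genes, 5 were called, against 40.0% of all genes tested. The 4 lower ones were *Cd79a*, *Cd79b*, *Syk* and *Btk*, against 18.9% of all genes, and the 1 higher one was *Cd81*, against 21.1% of all genes. Under the scaling on pan-B cell genes, 5 were again called but only *Cd79a* and *Cd81* were called under both scalings, *Cd79b* and *Syk* turned slightly positive and uncalled, *Btk* lost its call, and *Lyn*, *Blnk* and *Grb2* were called as higher. Both MIZ-1 △POZ libraries lay below both MIZ-1 WT libraries in 7 of the 9 genes, against 37.6% of all genes, and above them in 1, against 37.2%. With so many genes called in this comparison, 5 of 9 genes (55.6%) is no result about the 9 genes as a group. Without MIZ-1 WT replicate 1, 2 of the 9 and 2204 of all genes were called, without MIZ-1 WT replicate 2, 2 and 2825, and without MIZ-1 △POZ replicate 1, 3 and 4851. The median log2 fold change of the 9 genes was -0.10, beside -0.01 over all genes. In such bulk samples, fewer cells of a type and less RNA per cell cannot be told apart.

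*Cd79a* (ENSMUSG00000003379) encodes the Igα chain of the BCR and lies on chromosome 7 from 24897381 to 24902197, on the plus strand. It had 336 and 311 CPM in replicates 1 and 2 of MIZ-1 WT and 103 and 135 CPM in MIZ-1 △POZ replicates 1 and 2. Both MIZ-1 △POZ libraries were far below both MIZ-1 WT libraries, and the gap within MIZ-1 △POZ (0.40 on the log2 scale) was small beside the gap between genotypes. The log2 fold change was -1.44 (SE 0.13, adjusted p = 0.00157 by the quasi-likelihood test of edgeR with Benjamini-Hochberg adjustment), and the 95% confidence interval ran from -1.77 to -1.12. Among the 9 genes it was the only one that fell by more than 0.6. Over all genes tested, 107 had a log2 fold change at or below that of *Cd79a*, itself included. Of the 2291 genes with a mean of at least 100 CPM, a minimum chosen after the values were seen, 4 did, again with *Cd79a* counted. Relative to the geometric mean of the 12 pan-B cell genes, *Cd79a* stood at 51.9% and 47.5% in MIZ-1 WT and at 19.7% and 24.2% in MIZ-1 △POZ. The call held in all alternatives run, and with each library left out in turn the log2 fold change lay between -1.65 and -1.26. Since the Cre allele lies in this gene, the part of the insertion in the change was not tested, and reads of the Cre sequence were not analysed here.

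*Cd79b* (ENSMUSG00000040592) encodes Igβ, the partner of Igα, and lies on chromosome 11 from 106311341 to 106314762. It had 2032 and 2069 CPM in MIZ-1 WT and 1709 and 1795 CPM in MIZ-1 △POZ. The MIZ-1 △POZ libraries were both lower, but by far less than for *Cd79a*. The log2 fold change was -0.23 (SE 0.06, adjusted p = 0.0277 by the quasi-likelihood test of edgeR with Benjamini-Hochberg adjustment), and it flipped to 0.04 under the scaling on pan-B cell genes, where *Cd79b* stood at 314% and 316% of their mean in MIZ-1 WT and at 328% and 322% in MIZ-1 △POZ. The call was also lost without MIZ-1 WT replicate 1 (-0.24, adjusted p = 0.110), without MIZ-1 WT replicate 2 (-0.21, adjusted p = 0.129) and without MIZ-1 △POZ replicate 1 (-0.19, adjusted p = 0.0887 by the same edgeR test and adjustment).

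The CD79 heterodimer holds the products of both genes, so their RPKM were set against each other in each library. These are RNA levels, and the study reported neither CD79A nor CD79B protein as reduced in MIZ-1 △POZ cells. The ratio of *Cd79a* to *Cd79b* was 0.162 and 0.148 in replicates 1 and 2 of MIZ-1 WT, but only 0.0591 and 0.0740 in replicates 1 and 2 of MIZ-1 △POZ. *Cd79a* was thus the less abundant transcript of the pair in each library, and the ratio was lower in both MIZ-1 △POZ libraries. The change was -1.23 on the log2 scale. An exact two-sided permutation test over the 4 libraries gave p = 0.333, which is the smallest p that 2 against 2 libraries allow.

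The genes around *Cd79a* are given beside it because the Cre allele lies there. Of the 5 tested genes on each side, 3 were called, all lower, and 7 were not, beside 40.0% called and 18.9% lower of all genes, so the count is no result about the region. The called ones were *Phldb3* (-0.37), *Rabac1* (-0.22) and *Zfp574* (-0.38), and under the scaling on pan-B cell genes *Rabac1* flipped to 0.06 while *Phldb3* (-0.10) and *Zfp574* (-0.11) kept their sign without a call. That scaling instead called 4 other neighbors as higher, *Ethe1* (0.53), *Cd177* (1.98), *Rps19* (0.31) and *Grik5* (1.55). Without MIZ-1 WT replicate 1 none of the 10 was called, and without MIZ-1 WT replicate 2 only *Grik5* was. Without MIZ-1 △POZ replicate 1 *Cd177* was called as well, and without MIZ-1 △POZ replicate 2 *Rabac1* was not but *Arhgef1* was. The nearest gene upstream, *Rps19*, a ribosomal protein gene that ends 7574 bases before *Cd79a*, had 39566 and 37532 counts in MIZ-1 WT and 43443 and 41377 counts in MIZ-1 △POZ, with a log2 fold change of 0.04. The nearest gene downstream, *Arhgef1*, a guanine nucleotide exchange factor gene that starts 714 bases after *Cd79a*, had 9716 and 9230 counts in MIZ-1 WT and 8397 and 9222 counts in MIZ-1 △POZ, with a log2 fold change of -0.19 (adjusted p = 0.121 by the quasi-likelihood test of edgeR with Benjamini-Hochberg adjustment). *Ethe1* (0.26) and *Gm9844* (-0.16) were not called either. *Cd177* (1.73) and *Grik5* (1.28) had few counts, from 12 to 65 in each library, and wide intervals.

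**Figure D2:**
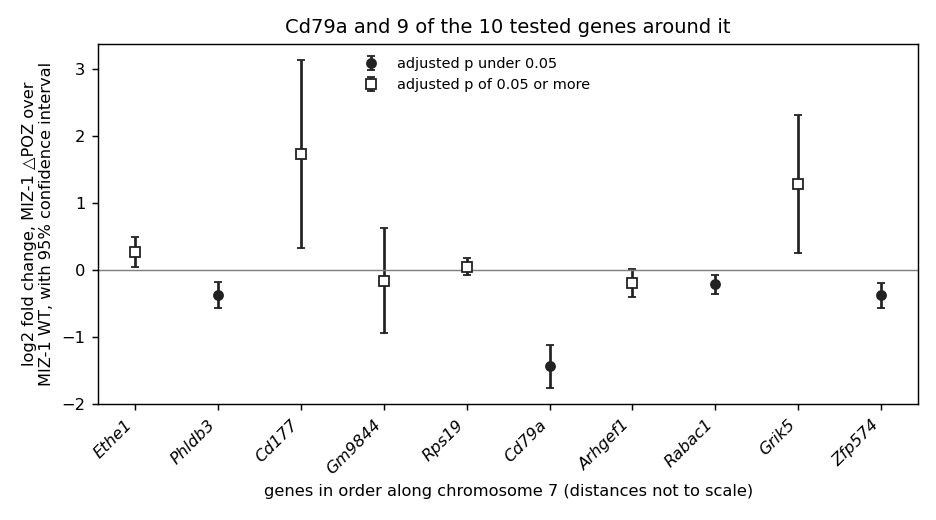
Log2 fold change of *Cd79a* and of 9 of the 10 tested genes around it on chromosome 7, in their order along it, with points for the estimates, bars for 95% confidence intervals and filled points for genes with an adjusted p under 0.05. *Cd79a* at -1.44 lies below these neighbors, whose estimates run from -0.38 to 1.73; *Rabac1*, filled at -0.22, flipped to 0.06 under the scaling on pan-B cell genes.

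Likeness to *Cd79a* over the 4 libraries was measured as the Euclidean distance between log2 CPM deviations from each gene's own mean. The nearest protein-coding gene was *Cacna1i*, a calcium channel gene, at a distance of 0.17. It had 208 and 199 CPM in MIZ-1 WT and 66.5 and 75.4 CPM in MIZ-1 △POZ. That both MIZ-1 △POZ libraries were far below both MIZ-1 WT libraries follows from its choice as the nearest of 12291 protein-coding genes. The next were *Syde1* (0.20), *Dnah1* (0.20), *Cyp2d22* (0.20) and *Ttbk1* (0.21), all under 5 CPM in each library.

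Promoter sequences from RefSeq (GRCm38.p6), each reaching from 250 bases before to 50 bases after a gene's start, were matched to 6 of the 9 genes with 8 entries. *Cd79b*, *Lyn* and *Blk* had none. Those of *Cd79a*, which drives the Cre allele, and of *Cd81* are shown, since these genes kept their calls in all alternatives run and moved in opposite directions. Only the bases before the GENCODE gene start are printed, chr7:24897247-24897380 for *Cd79a* and chr7:143052500-143052738 for *Cd81*, both on the plus strand. Capitals mark matches, on either strand, to 5 motifs chosen after the expression values were seen.
*Cd79a*: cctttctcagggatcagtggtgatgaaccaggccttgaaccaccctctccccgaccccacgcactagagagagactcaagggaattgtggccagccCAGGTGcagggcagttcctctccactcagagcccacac
*Cd81*: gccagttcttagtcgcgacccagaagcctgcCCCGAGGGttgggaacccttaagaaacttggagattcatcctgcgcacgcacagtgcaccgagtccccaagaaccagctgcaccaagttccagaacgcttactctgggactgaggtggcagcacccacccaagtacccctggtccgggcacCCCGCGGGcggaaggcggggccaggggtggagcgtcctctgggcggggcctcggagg
The stretch of *Cd79a* held CAGGTG, an E-box of the kind E2A proteins bind, which 20.2% of all 32851 promoters of 300 bases held and which the windows of *Blnk* and *Syk* held too. The stretch of *Cd81* held CCCNNGGG, the core of the palindrome that EBF1 binds, in 2 places, and 13.7% of all promoters held it. Over the whole windows of 300 bases, GGAAGT, an ETS motif found in 23.8% of all promoters, was in those of *Cd79a*, *Blnk*, *Grb2* and *Syk*. The octamer ATTTGCAT, found in 1.74% of all promoters, was in that of *Blnk*, and TATAAA, found in 13.6%, was in those of *Cd81* and *Grb2*. A match describes the letters and does not make a binding site. Only exact matches to these letters were searched, so a stretch without a mark is not shown to lack a site. This holds for EBF1 at *Cd79a* too.

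*Cd81* (ENSMUSG00000037706) lies on chromosome 7 from 143052739 to 143067934. It had 223 and 228 CPM in MIZ-1 WT and 316 and 297 CPM in MIZ-1 △POZ. Both MIZ-1 △POZ libraries were above both MIZ-1 WT libraries, and the replicates of each genotype lay close together. *Cd81* rose with a log2 fold change of 0.45 (SE 0.05, adjusted p = 0.00250 by the quasi-likelihood test of edgeR with Benjamini-Hochberg adjustment) and its 95% confidence interval ran from 0.32 to 0.57. Relative to pan-B cell genes the log2 fold change was 0.72, and with each library left out in turn it lay between 0.40 and 0.50. *R74862* overlaps *Cd81* on the opposite strand, with 60 and 57 counts in MIZ-1 WT and 147 and 167 counts in MIZ-1 △POZ, against at least 9574 of *Cd81*.

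*Cr2*, which encodes the complement receptor of the co-receptor and is a marker of marginal zone B cells, had 2148 and 2170.0 CPM in MIZ-1 WT and 2472 and 2657 CPM in MIZ-1 △POZ, for a log2 fold change of 0.25 and, under the scaling on pan-B cell genes, of 0.52. It was called (adjusted p = 0.0282 by the quasi-likelihood test of edgeR with Benjamini-Hochberg adjustment), but not without MIZ-1 WT replicate 1, MIZ-1 WT replicate 2 or MIZ-1 △POZ replicate 2, and lay between 0.21 and 0.30 with each library left out in turn. Of 12 other tetraspanin genes tested, 4 were higher, 3 lower and 5 not called, beside 21.1% higher and 18.9% lower of all genes. Their median log2 fold change was 0.35, and under the scaling on pan-B cell genes 6 were higher and 1 lower. *Cd9* (1.23), *Cd82* (0.65) and *Tspan31* (0.48) were higher, also relative to pan-B cell genes. *Cd37* (-0.53), *Cd53* (-0.45) and *Tspan32* (-0.30) were lower, and of these *Cd37*, itself a pan-B cell gene of the scaling, was still called under it (-0.26), while *Cd53* (-0.17) and *Tspan32* (-0.03) were not. *Tspan32* was also not called without MIZ-1 WT replicate 2, and its log2 fold change lay between -0.34 and -0.26 with each library left out in turn.

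Of the SRC family kinases, *Lyn* (ENSMUSG00000042228), which starts and also restrains BCR signals, lies on chromosome 4 from 3678115 to 3813122. It had 567 and 559 CPM in MIZ-1 WT and 541 and 536 CPM in MIZ-1 △POZ. Although both MIZ-1 △POZ libraries were below both MIZ-1 WT libraries, the genotypes were close, and *Lyn* was not called at a log2 fold change of -0.06 (95% confidence interval from -0.18 to 0.05, adjusted p = 0.301 by the quasi-likelihood test of edgeR with Benjamini-Hochberg adjustment). Relative to pan-B cell genes the sign flipped and *Lyn* was called, at 0.21 (adjusted p = 0.0332 by the same edgeR test and adjustment). *Gm26857* overlaps *Lyn* on the opposite strand with 124 counts at most. *Blk* (ENSMUSG00000014453), the B lymphoid kinase of the family, lies on chromosome 14 from 63372836 to 63417037. It had 592 and 613 CPM in MIZ-1 WT and 556 and 569 CPM in MIZ-1 △POZ, and the genotypes did not overlap. The log2 fold change was -0.10 (95% confidence interval from -0.22 to 0.02, adjusted p = 0.157 by the same edgeR test and adjustment). It flipped to 0.17 relative to pan-B cell genes, where it was not called either.

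Among 6 other kinases of the SRC family, 3 were higher in MIZ-1 △POZ and 3 were not called, with a median log2 fold change of 0.35, beside 21.1% higher and 18.9% lower of all genes, while 4 were higher under the scaling on pan-B cell genes. *Fgr*, a kinase of myeloid cells and some B cells, rose from 48.0 and 48.9 CPM to 87.4 and 69.9 CPM, for a log2 fold change of 0.70. *Src* (1.28) and *Yes1* (1.14) also rose, from levels under 3 CPM. *Fyn* (-0.07) and *Lck* (-0.04) were among those not called, and relative to pan-B cell genes they flipped to 0.20 and 0.23, again without a call. Of 4 genes that control the family, 3 were lower, beside 18.9% of all genes, and 1 was not called, with a median of -0.24. *Csk*, the kinase that holds SRC kinases inactive, had a log2 fold change of -0.25, its membrane adaptor *Pag1* of -0.43 and *Ptprc*, which encodes the phosphatase CD45 and its B220 form, of -0.23. These 3 were the lower ones, but relative to pan-B cell genes *Csk* and *Ptprc* flipped to 0.02 and 0.04 and *Pag1* (-0.16) was not called. *Csk* was not called without MIZ-1 WT replicate 1 or 2 (between -0.28 and -0.22 over the 4 fits that leave out a library), *Pag1* not without MIZ-1 WT replicate 2 (between -0.53 and -0.31), and *Ptprc* in none of these fits (between -0.25 and -0.20). *Ptpn22* (0.45), a phosphatase that acts on SRC kinases, was not called (adjusted p = 0.0835 with all libraries by the quasi-likelihood test of edgeR with Benjamini-Hochberg adjustment). Relative to pan-B cell genes it was called as higher (0.72), and it lay between 0.20 and 0.74 with each library left out in turn. With no filter on low counts, 1 of the 4 genes was called as higher and 3 as lower.

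*Syk* (ENSMUSG00000021457), the kinase that binds the phosphorylated CD79 tails, lies on chromosome 13 from 52583173 to 52648792. It had 1391 and 1456 CPM in MIZ-1 WT and 1207 and 1222 CPM in MIZ-1 △POZ. The genotypes did not overlap, with MIZ-1 △POZ lower and its libraries close to each other. The log2 fold change was -0.23 (SE 0.05, adjusted p = 0.0219 by the quasi-likelihood test of edgeR with Benjamini-Hochberg adjustment), and it flipped to 0.04 under the scaling on pan-B cell genes, where *Syk* stood at 215% and 222% of their mean in MIZ-1 WT and at 231% and 219% in MIZ-1 △POZ. The call was lost without MIZ-1 WT replicate 1 (-0.26, adjusted p = 0.0771), without MIZ-1 WT replicate 2 (-0.20, adjusted p = 0.128) and without MIZ-1 △POZ replicate 1 (-0.22, adjusted p = 0.0519 by the same edgeR test and adjustment).

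*Btk* (ENSMUSG00000031264), the TEC family kinase that activates phospholipase C in B cells, lies on the X chromosome from 134542336 to 134583570. It had 116 and 119 CPM in MIZ-1 WT and 83.9 and 94.9 CPM in MIZ-1 △POZ. In MIZ-1 △POZ both libraries were lower, and they differed from each other more than the MIZ-1 WT libraries did. *Btk* fell with a log2 fold change of -0.40 (SE 0.07, adjusted p = 0.00822 by the quasi-likelihood test of edgeR with Benjamini-Hochberg adjustment), and relative to pan-B cell genes it kept its sign at -0.13 without a call (adjusted p = 0.158 by the same edgeR test and adjustment). The call was also lost without MIZ-1 WT replicate 1 (-0.42, adjusted p = 0.0560) and without MIZ-1 WT replicate 2 (-0.38, adjusted p = 0.0592 by the same edgeR test and adjustment). Since *Btk* is X-linked, the sex-linked genes stand beside it. *Xist* had 1.12 and 1.43 CPM in MIZ-1 WT and 801 and 930.5 CPM in MIZ-1 △POZ, and the Y-linked *Ddx3y*, *Eif2s3y*, *Kdm5d* and *Uty* were lower, with log2 fold changes from -4.66 to -4.29, so the sex of the mice and the genotype cannot be told apart. Of 479 X-linked genes tested, 16.9% were lower, beside 18.9% of the other genes outside the Y chromosome, and their median log2 fold change was -0.02.

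Of 4 paralogs of these kinases tested, 1 was lower and 3 were not called, beside 18.9% lower of all genes. Their median log2 fold change was 0.06. *Tec* had 229 and 236 CPM in MIZ-1 WT and 179 and 187 CPM in MIZ-1 △POZ. It fell with a log2 fold change of -0.34, which was -0.07 and not called relative to pan-B cell genes. *Zap70* (-0.07) and *Txk* (0.30), kinases of T cells, were not called, both at 4.78 CPM or less, but relative to pan-B cell genes *Zap70* flipped to 0.19 without a call and *Txk* was called as higher (0.57), and *Bmx* did not reach the count filter.

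*Blnk* (ENSMUSG00000061132), the adaptor that SYK phosphorylates, lies on chromosome 19 from 40928927 to 40994535. It had 313 and 295 CPM in MIZ-1 WT and 288 and 299.5 CPM in MIZ-1 △POZ. The libraries of the genotypes overlapped, and the log2 fold change of -0.05 was not called (95% confidence interval from -0.18 to 0.08, adjusted p = 0.478 by the quasi-likelihood test of edgeR with Benjamini-Hochberg adjustment). *Grb2* (ENSMUSG00000059923) lies on chromosome 11 from 115644045 to 115708597. It had 59.7 and 59.2 CPM in MIZ-1 WT and 54.8 and 59.2 CPM in MIZ-1 △POZ, so that MIZ-1 △POZ replicate 2 lay at the MIZ-1 WT level. The log2 fold change of -0.06 was not called (95% confidence interval from -0.21 to 0.09, adjusted p = 0.452 by the same edgeR test and adjustment). Relative to pan-B cell genes both adaptors flipped and were called as higher, *Blnk* at 0.22 and *Grb2* at 0.21 (adjusted p = 0.0260 and 0.0456 by the same edgeR test and adjustment).

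**Figure D3:**
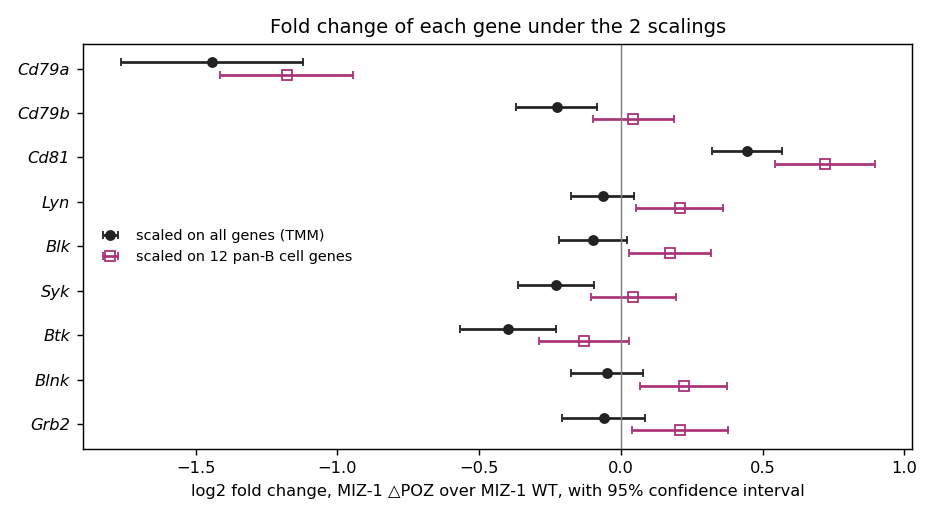
Log2 fold change of the 9 genes, MIZ-1 △POZ over MIZ-1 WT, with 95% confidence intervals, scaled on all genes (filled circles) and on 12 pan-B cell genes (open squares). *Cd79a* (-1.44 and -1.18) and *Cd81* (0.45 and 0.72) keep their side of 0 under both, *Btk* (-0.40 and -0.13) keeps its sign, and *Cd79b*, *Lyn*, *Blk*, *Syk*, *Blnk* and *Grb2* flip from negative to positive.

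Of 3 paralogs of the adaptors tested, 1 was higher and 2 were lower, beside 21.1% higher and 18.9% lower of all genes. Their median log2 fold change was -0.18. *Lcp2*, which encodes SLP-76, the counterpart of BLNK in T cells and myeloid cells, rose from 9.79 and 9.71 CPM in MIZ-1 WT to 32.8 and 26.8 CPM in MIZ-1 △POZ, for a log2 fold change of 1.61 (adjusted p = 0.000981 by the quasi-likelihood test of edgeR with Benjamini-Hochberg adjustment). *Grap* (-0.18) and *Grap2* (-0.56), adaptors related to GRB2, were lower, and relative to pan-B cell genes *Grap2* (-0.30) was still called while *Grap* flipped to 0.09. *Grap* was not called without MIZ-1 WT replicate 1 or 2 or without MIZ-1 △POZ replicate 1, at -0.23 to -0.12 with each library left out in turn. *Clnk* did not reach the count filter. Of 15 further adaptors and exchange factors, 2 were higher, 5 lower and 8 not called, beside 21.1% higher and 18.9% lower of all genes. Their median log2 fold change was -0.02, and with 40.0% of all genes called the count is no result about this list. Under the scaling on pan-B cell genes 9 were higher and 0 lower, with a median of 0.26, and without MIZ-1 WT replicate 1 or 2 none was lower. *Gab2* (1.72) and *Gab1* (1.87), docking proteins of GRB2, were higher at under 9 CPM, *Gab1* not without MIZ-1 WT replicate 1 (1.64 to 2.14 with each library left out in turn). *Gab1*, with 8 and 11 counts in MIZ-1 WT against 40 and 35, passed the filter on low counts through MIZ-1 △POZ, which favors a higher call. *Bank1* (-0.25), *Vav1* (-0.20) and *Lat2* (-0.21) were lower, and relative to pan-B cell genes, of which *Bank1* is one, they flipped to 0.02, 0.07 and 0.07. None of these 3 was called without MIZ-1 WT replicate 1 or 2, and *Vav1* also not without MIZ-1 △POZ replicate 2 (from -0.29 to -0.21 for *Bank1*, from -0.23 to -0.15 for *Vav1* and from -0.27 to -0.14 for *Lat2*).

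The first effectors downstream of SYK, BTK and BLNK had a median log2 fold change of -0.18, with 1 of 10 genes higher, 6 lower and 3 not called, beside 21.1% higher and 18.9% lower of all genes. Under the scaling on pan-B cell genes 2 were higher and 1 lower, with a median of 0.09, and without MIZ-1 WT replicate 1 or 2 only 1 was lower, with 0 higher without replicate 1 and 1 without replicate 2. Without MIZ-1 △POZ replicate 1, 2 were higher and 4 lower, and without MIZ-1 △POZ replicate 2, 1 was higher and 8 were lower. *Plcg1*, a phospholipase C gene, rose from 52.6 and 54.7 CPM to 72.7 and 68.7 CPM, for a log2 fold change of 0.40. *Plcg2*, the other phospholipase C gene of the list, had 466 and 496 CPM in MIZ-1 WT and 407 and 443 CPM in MIZ-1 △POZ, lower in both libraries but not called, at -0.18 (adjusted p = 0.0665 by the quasi-likelihood test of edgeR with Benjamini-Hochberg adjustment). It was called without MIZ-1 △POZ replicate 2 (-0.23) and flipped to 0.09, without a call, relative to pan-B cell genes. *Prkcb*, the protein kinase C that activates NF-κB after BCR ligation, fell from 458 and 466 CPM to 312 and 349 CPM, for a log2 fold change of -0.48 that was still called relative to pan-B cell genes (-0.21). *Malt1* (-0.21), a protease of the complex that PKCβ activates, was lower but flipped to 0.07 under that scaling, and *Cblb* (-0.52), a ubiquitin ligase that dampens receptor signals, kept its sign (-0.25) without a call. Neither was called without MIZ-1 WT replicate 1 or 2 (from -0.23 to -0.19 for *Malt1* and from -0.69 to -0.36 for *Cblb* with each library left out in turn), nor was *Plcg1* without MIZ-1 WT replicate 1 (from 0.36 to 0.45).

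Over the 8 lists of pathway genes and paralogs, 56 of 58 genes were tested, of which 12 were higher, 21 lower and 23 not called, with a median log2 fold change of -0.06. The called genes made up 58.9% of those tested, beside 40.0% of all genes, of which 18.9% were lower and 21.1% higher. Under the scaling on pan-B cell genes the split turned to 25 higher and 3 lower, with a median of 0.22. Of the genes called with TMM, 12 of the 21 lower genes flipped to positive values, 3 were still called as lower, and all 12 higher genes were still called as higher. Leaving out MIZ-1 WT replicate 1 or 2 left 15 or 17 called genes. With any of the 4 libraries left out, 5 of the 21 lower and 8 of the 12 higher genes were called each time.

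Markers of cell types moved with the genotype beside these results. The marker lists were also chosen with earlier results of these data known. Over all genes tested, 21.1% were higher and 18.9% lower. The pan-B cell list had 10 of 12 genes lower and 1 higher, with a median log2 fold change of -0.28, and its summed level was 10808 and 11086 CPM in MIZ-1 WT and 9118 and 9564 CPM in MIZ-1 △POZ. *Ms4a1* was its most abundant gene, and no gene of the list was at 0. The higher gene was *Pou2af1* (0.55), and 1 gene of the list was also higher under the scaling on pan-B cell genes. Under the scaling on these same genes 2 stayed lower and the median was -0.00, where the scaling itself fixes their mean log level. Fewer were called as lower with TMM without MIZ-1 WT replicate 1 or 2, where the median was -0.30 and -0.26. Of the follicular B cell list, 3 of 4 tested genes were lower (2 without MIZ-1 WT replicate 2), with a median of -0.63 and summed levels of 1218 and 1354 CPM against 934 and 1028 CPM. All 6 marginal zone genes were higher (4 without MIZ-1 WT replicate 2 and 5 without MIZ-1 WT replicate 1 or MIZ-1 △POZ replicate 2), with a median of 0.66 and summed levels of 2598 and 2587 CPM against 3145 and 3386 CPM, led by *Cr2*. *Cr2* and *Cd9* of this list are also given above beside *Cd81*. Of 6 plasma cell genes 5 were higher, with a median of 1.01 and summed levels of 734 and 1059 CPM against 2477 and 2311 CPM, led by *Jchain*. The follicular, marginal zone and plasma cell lists kept the direction of their medians under the scaling on pan-B cell genes (-0.36, 0.93 and 1.28). The part of these shifts between B cell types in the values of the 9 genes was not tested.

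All 17 macrophage markers were higher in MIZ-1 △POZ, *Vcam1* was the most abundant, no gene was at 0, and the median log2 fold change was 1.98 (2.27 under the scaling on pan-B cell genes). Without MIZ-1 WT replicate 1, 15 of them were called. Their summed level was 1024 and 1347 CPM in MIZ-1 WT and 5951 and 3875 CPM in MIZ-1 △POZ replicates 1 and 2. *Lyz2* went against this order of the MIZ-1 △POZ replicates, with 112 and 225 CPM. The part of macrophage RNA in the levels of the genes above that rose was not tested. Other cell types were at low levels. The T cell list had 2 genes higher (*Cd4* and *Cd28*), 1 lower (*Cd2*) and 8 not called, and most of its summed level, from 214 to 270 CPM, came from *Cd2*. The NK cell list had 1 of 5 genes higher (*Prf1*) and summed to between 32.9 and 40.4 CPM. *Klrb1c* led it by the mean over all 4 libraries but was the most abundant only in MIZ-1 WT replicate 1. With edgeR, in the plasmacytoid dendritic cell list, whose cells also carry B220, none of 5 genes was called (0 at an unadjusted p under 0.05 and 0 by the Wald test of DESeq2), with summed levels from 78.9 to 113 CPM and *Bst2* as the most abundant by the mean over all 4 libraries, though *Siglech* was above it in both MIZ-1 WT libraries. There 2 genes were higher under the scaling on pan-B cell genes, 2 lower without MIZ-1 △POZ replicate 1 and 1 higher without MIZ-1 △POZ replicate 2. With edgeR, none of 7 erythroid genes was called either (0 at an unadjusted p under 0.05 and 0 by the Wald test of DESeq2), at 38.2 to 109 CPM led by *Hbb-bs*. Without MIZ-1 △POZ replicate 1, 6 were higher, and without MIZ-1 △POZ replicate 2, 1 was lower. The neutrophil list, led by *S100a9*, had 1 of 5 tested genes higher (*Ltf*, not without MIZ-1 WT replicate 1) at 16.1 CPM or less, and the platelet list, led by *Itga2b*, had 1 of 3 tested genes higher at 1.89 CPM or less (*Pf4*, with none called without MIZ-1 WT replicate 1 or 2 or without MIZ-1 △POZ replicate 1, nor by the Wald test of DESeq2). Under the scaling on pan-B cell genes 3 neutrophil genes were higher. The median log2 fold change of this list was 1.73 and lay between 1.07 and 2.68 with each library left out in turn. *Ltf* had 6 and 9 counts in MIZ-1 WT but 48 and 90 counts in MIZ-1 △POZ, and *Pf4* had 6 and 3 against 25 and 15 counts. Both passed the filter on low counts only through the genotype where they are high, which favors a higher call. *Elane* was at 0 in 3 of the 4 libraries and *Gp9* in 1.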

How the data were processed

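The authors trimmed paired-end reads of stranded, rRNA-depleted libraries with Trimmomatic, mapped them with TopHat2 to GRCm38 and counted them on Ensembl genes with HTSeq; the submitters' processing notes name TopHat2 version 2.1.0, while the study's methods name an earlier version. The deposited values are raw counts per gene, neither normalized nor pooled, and the strand setting of the counting is not given in the sources used here. Reads outside genes, ambiguous reads and reads without a unique alignment made up 21.1% to 27.2%, 0.281% to 0.302% and 42.8% to 44.1% of the table and entered neither the library sizes nor any test.

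A gene was tested where 2 or more libraries had 10 or more counts, with edgeR version 4.0.16 in R version 4.3.3 (TMM, quasi-likelihood test, genotype only), with Benjamini-Hochberg adjustment over all tested genes at 0.05. The common dispersion was 0.00848. Log2 CPM for distances used a prior count of 2. Symbols, positions and exon lengths came from GENCODE M21. Alternatives were DESeq2 size factors, DESeq2 version 1.42.0 with its Wald test, a table without any filter, a stricter filter (mean of 30 RPM or more), a replicate block, dropping 257 immunoglobulin genes, scaling on 12 pan-B cell genes and leaving out each library, where the lone library of a genotype is assumed to vary like the others. The procedures were tested on simulated data, where DESeq2 recovered fewer of the changed genes than edgeR and the pass mark was lowered after its result was seen, so a lack of calls by DESeq2 carries less weight.

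Named genes were the 9 genes of interest, *Zbtb17*, 5 tested genes on each side of *Cd79a*, the 5 protein-coding genes nearest to *Cd79a*, all tested genes of pathway lists of up to 6 genes and of longer lists up to 3 called genes per direction with the smallest p, and of marker lists the most abundant gene and genes at 0. Other genes named were chosen after their values were seen. The members and lists were chosen with earlier results of these data known. *Ighd* was not analysed here, and some genes that the rule takes in are not given.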

Additional observations from a re-analysis of the deposited data

How the results depend on the processing

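*Cd79a* and *Cd81* kept their direction and their call under all 11 alternatives. The 9 genes gave 5 calls under the 6 alternatives other than the pan-B cell scaling that kept the 4 libraries, and from 2 to 5 with a library left out. Called genes over the whole table numbered 2204 to 5739 with a library left out, and 2746 of 6052 with a mean of at least 30 RPM, where fewer genes were tested. The pathway lists then gave 20 calls among 43 tested genes, and 15 to 33 with a library left out. The neighbors of *Cd79a* gave 0 calls among 3 tested genes with at least 30 RPM, 5 with no filter, and 0 to 4 with a library left out, while the pan-B cell scaling called 4 others, all higher (*Ethe1*, *Cd177*, *Rps19* and *Grik5*), and the replicate block lost *Rabac1* and gained *Cd177* and *Grik5*; the cause of the rise with no filter was not tested. *Zbtb17* ranged from -0.35 to -0.30 with a library left out and was -0.051 relative to pan-B cell genes. The ratio of *Cd79a* to *Cd79b* changed by -1.39 to -1.07 on the log2 scale with a library left out. Signs turned under the pan-B cell scaling for *Cd79b* (0.044), *Lyn* (0.21), *Blk* (0.17), *Syk* (0.043), *Blnk* (0.22) and *Grb2* (0.21), where the shift of all genes is part of the construction. With at least 30 RPM they turned for *Lyn* (0.012), *Blnk* (0.026) and *Grb2* (0.015), without a call. TMM factors were recalculated on the genes that passed this filter. All 9 genes moved upward with it, as *Cd79a* (-1.44 to -1.37) and *Cd81* (0.45 to 0.52) did. These signs near 0 therefore depend on the scaling that goes with the filter. The replicate numbers did not pair the libraries (correlation of deviations -0.07 over 14554 genes), and a replicate block gave 4732 called genes and 5 of the 9, while the pathway lists fell to 26 calls, with 1 adaptor and 4 effector genes lower. With 2 libraries per genotype, small changes such as those of *Lyn*, *Blk*, *Blnk* and *Grb2* are not resolved.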
